A study of Mus musculus with 30 samples.

Results

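Platr transcripts (pluripotency-associated transcripts) are long noncoding RNAs that were named for their abundance in mouse embryonic stem cells and their loss when these cells differentiate. They were taken here as the rows of the deposited gene table whose symbol is Platr followed by a number, which gave 30 of 49585 rows. The set was chosen by symbol and selected on measured FPKM in 8-cell embryos: on presence, and on the contrast between Yy1 knockdown and control that drew attention to Platr16. Their values in that contrast are therefore a description without a test.

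The study followed nucleosome remodeling by the zinc finger factor YY1 in early mouse development. Of its 30 samples, 4 RNA-seq libraries of 8-cell embryos (BDF1 x BDF1, cultured in KSOM medium) had columns in the table, 2 from embryos given a control knockdown and 2 from embryos in which Yy1 was knocked down by siRNA number 1 of the labels. The other 26 samples were not analysed here. Values were FPKM, a unit that divides the fragments of a gene by its length and by the depth of sequencing, so that levels can be compared between genes of different length. The totals recovered from the steps between the values were 29302489 to 34429515 fragments per library. The labels do not say whether replicate libraries came from separate collections of embryos, so p-values below reflect only how these libraries vary, and that variation may be technical.

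Long noncoding RNAs are transcribed like messenger RNAs but are not translated into known proteins; many remain in the nucleus, and some affect the genes beside them or bring proteins to chromatin. Among the Platr transcripts, Platr10 and Platr22 have been studied as chromatin-associated RNAs of the pluripotency network, Platr14 as a regulator of differentiation genes, and Platr4 in mesoderm differentiation. The 8-cell embryo is the stage at which blastomeres compact and begin to express the factors that later separate inner cell mass and trophectoderm. YY1 binds DNA at a short motif with the core letters CCAT and can activate or repress transcription.

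The targeted gene was low in each library labelled as its knockdown: Yy1 had 5.89 and 7.98 FPKM there, against 77.7 and 71.2 FPKM in control (10.7-fold lower, limma adjusted p = 0.0556). All 8 markers of the 8-cell embryo had a mean of at least 1 FPKM, Pou5f1 being at 178 to 214 FPKM. The granulosa cell markers Fshr, Has2, Inha and Ptx3, the sperm markers Odf1, Prm1, Tnp1 and Tnp2 and the blood markers Hbb-bs and Hbb-bt were listed at 0 in all 4 libraries. The 11 granulosa markers summed to 5.04 to 6.12 FPKM in control and to 8.69 to 9.16 FPKM in knockdown libraries, most of it Amhr2 (4.74 to 7.8 FPKM). The 6 trophectoderm markers summed to 20.7 and 36.8 FPKM in control and to 61.1 and 58.2 FPKM in knockdown libraries, 4 of them having a mean of 1 FPKM or more. Primitive endoderm markers summed to 52.4 to 67.7 FPKM, most of it Gata6 (50.7 to 65.5 FPKM), with Sox17 at 0. Sperm markers summed to 2.67 to 6.39 FPKM and blood markers to 0.261 to 1.68 FPKM. The groups overlapped in the primitive endoderm, sperm and blood sums. The part of these marker differences in the Platr values was not tested.

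The promoters of Platr8, Platr10 and Platr14 are shown first. They serve as examples of the members with a RefSeq promoter window, 250 bases before to 50 bases after a start, in build GRCm38.p6: Platr8 for its motif match and its difference between the groups, Platr10 and Platr14 as present members. Platr8 lies at chr2:109902396-109913319 (window chr2:109913270-109913569, minus strand), Platr10 at chr3:75647441-75655731 (window chr3:75655682-75655981, minus strand) and Platr14 at chr2:104559184-104571429 (window chr2:104559209-104559508, plus strand, for 1 of its transcripts). All are lncRNA genes in RefSeq. Capitals mark matches to CCATNTT, the core letters of the YY1 motif with its usual flank, and to the shorter GCCAT, on either strand.

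Platr8: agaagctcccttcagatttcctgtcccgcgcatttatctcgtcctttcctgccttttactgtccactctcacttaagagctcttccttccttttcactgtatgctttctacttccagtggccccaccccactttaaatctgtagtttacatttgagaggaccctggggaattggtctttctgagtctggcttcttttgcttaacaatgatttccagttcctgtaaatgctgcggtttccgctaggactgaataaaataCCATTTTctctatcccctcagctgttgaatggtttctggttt
Platr10: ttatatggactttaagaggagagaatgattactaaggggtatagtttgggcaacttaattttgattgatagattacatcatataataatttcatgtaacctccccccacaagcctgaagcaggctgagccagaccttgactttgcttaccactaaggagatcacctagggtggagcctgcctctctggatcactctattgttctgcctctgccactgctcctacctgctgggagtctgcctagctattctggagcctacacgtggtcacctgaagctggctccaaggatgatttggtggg
Platr14: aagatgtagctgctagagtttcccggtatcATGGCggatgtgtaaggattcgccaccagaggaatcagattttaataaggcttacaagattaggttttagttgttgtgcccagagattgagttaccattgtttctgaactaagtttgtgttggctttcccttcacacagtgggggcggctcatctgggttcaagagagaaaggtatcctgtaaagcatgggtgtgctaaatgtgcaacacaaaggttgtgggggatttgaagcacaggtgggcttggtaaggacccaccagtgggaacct

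In the window of Platr8 the letters CCATTTT stand 8 bases past the start, on the strand of the gene. The Platr14 window holds GCCAT on the opposite strand, 220 bases before the start, and the Platr10 window holds neither. Of 15 promoter windows of 13 Platr genes, 2 held CCATNTT on either strand, those of Platr8 and Platr26, or 13.3%. Of 32851 windows of all genes in the table, 16.1% did. Platr26 had 0 and 0.298 FPKM in control and 0.229 and 0 FPKM in Yy1 knockdown libraries, so its groups overlapped. GCCAT, which overlaps CCATNTT where both match, was in 5 of 15 (33.3%) against 40.5% of all windows. The longer YY1 motif AAGATGGCG, which overlaps GCCAT on its other strand, was in 0 of 15 and in 1.4% of all windows. The octamer ATGCAAAT, bound by POU factors such as OCT4, was in 1 of 15, that of Platr21, against 1.74%. These shares describe letters in these windows only, and Platr16 and Platr2, without a RefSeq entry, have no window. Median GC content was 49% over the Platr windows, with a range of 39 to 52%, and 52.7% over all windows.

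Most Platr transcripts left some fragments in 8-cell embryos, and a minority reached 1 FPKM. Of the 30 rows, 28 were above 0 in at least 1 library and 21 in all 4, while Platr7 and Platr11 were listed at 0 throughout. The mean over the 4 libraries was at least 1 FPKM for 11 rows (36.7%), called present below, and 8 were at 1 FPKM or more in every library. By contrast, 6.37% of the 3264 other rows with the RefSeq biotype lncRNA had such a mean, and 54.7% were above 0 in a library (20.7% in all 4) against 93.3% of the Platr rows. Of all 49585 rows, 24.4% had a mean of at least 1 FPKM. The lists are not alike in annotation, since only 17 of the 30 Platr rows have the RefSeq biotype lncRNA and 11 have no RefSeq entry. Of the present rows, only Platr10, Platr14, Platr27 and Platr29 have that biotype. Platr genes were also selected for expression in stem cells and the other rows were not. These shares therefore describe the lists and are not a test. Among present rows the median level was 4.56 FPKM for Platr transcripts, 2.11 FPKM for the 208 other lncRNAs and 6.06 FPKM for all 12120 rows.

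**Figure D1:**
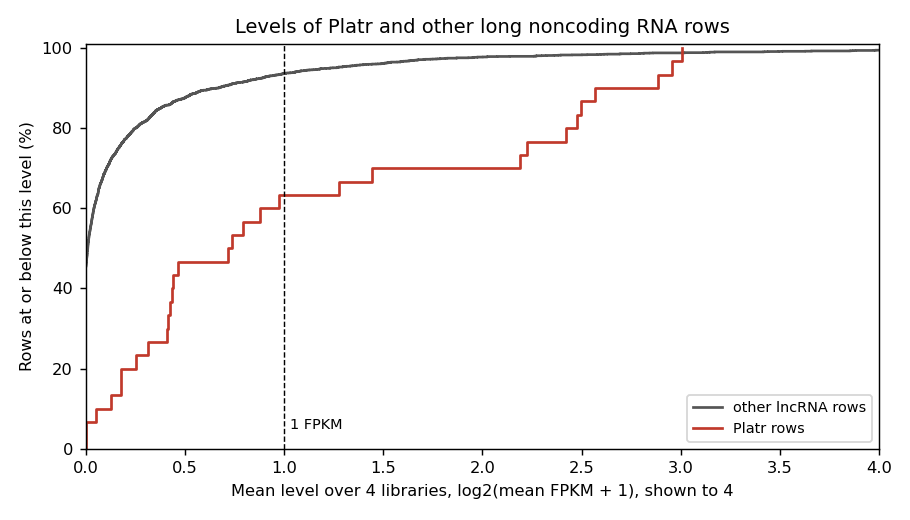
Cumulative share of rows (y axis, %) at or below a mean level (x axis, log2(mean FPKM + 1) over 4 libraries) for the 30 Platr rows in red and 3264 other lncRNA rows in grey; the dashed line marks 1 FPKM. At that line 11 of 30 Platr rows and 208 of 3264 other rows lie to the right. Only 17 of the 30 Platr rows have the RefSeq biotype lncRNA by which the other rows were taken.

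Just inside the threshold of presence were Platr2 (mean 1.42 FPKM) and Platr15 (1.72 FPKM), and just outside it Platr30 (0.968 FPKM) and Platr13 (0.837 FPKM). Counted by group, 11 rows had a mean of at least 1 FPKM in control embryos and 11 after Yy1 knockdown, 9 of them in both. Platr2 and Platr8 were above it in control only, and Platr16 and Platr30 after Yy1 knockdown only. By fragments, 17 rows had at least 10 in both control libraries, 15 in both knockdown libraries and 13 in all 4. Only 6 rows (Platr10, Platr14, Platr17, Platr23, Platr25 and Platr31) had at least 100 in every library.

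**Figure D2:**
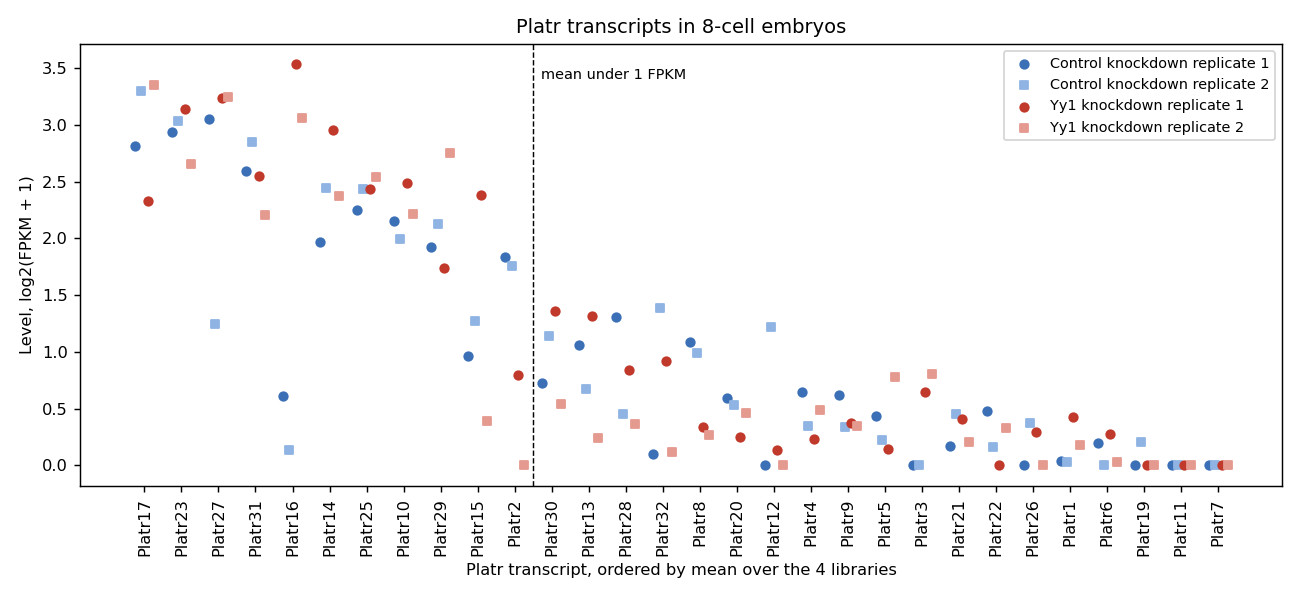
Level of each Platr transcript as log2(FPKM + 1) (y axis) in each of the 4 libraries, ordered by the mean (x axis); blue marks control and red Yy1 knockdown libraries, circles replicate 1 and squares replicate 2, and the dashed line parts rows above and below a mean of 1 FPKM. Platr16 is the member whose red and blue points lie farthest apart.

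The highest members of control embryos were Platr17, Platr23, Platr31, Platr27 and Platr25. Platr17, on chromosome 17 from 33893206 to 33906680, is listed in RefSeq as a synonym of Smim40, a protein-coding gene for a small membrane protein, so it is a member by its symbol in the table but not by the biotype. It had 6.01 and 8.84 FPKM in control and 4.04 and 9.22 FPKM in Yy1 knockdown libraries (mean 7.42 ± 2 and 6.63 ± 3.66 FPKM, SD, n = 2 each). The groups overlapped, and both the lowest and the highest value were in knockdown libraries. Platr23 had 6.67 and 7.21 FPKM in control and 7.81 and 5.3 FPKM in knockdown libraries, from 379 to 649 fragments. The knockdown values of Platr23 lay on either side of both controls.

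Platr31 had 5.03 and 6.21 FPKM in control and 4.86 and 3.61 FPKM in knockdown libraries. Both knockdown libraries were below both controls, but 4.86 and 5.03 FPKM lay closer to each other than either to its replicate. The group means, 5.62 ± 0.834 and 4.24 ± 0.888 FPKM (SD, n = 2 each), differed by 1.33-fold. Platr25, which RefSeq lists as miscellaneous RNA on chromosome 13 from 62671784 to 62762002, had the narrowest spread of the well-covered members. Its values were 3.76 and 4.42 FPKM in control and 4.41 and 4.8 FPKM in knockdown libraries, and the groups overlapped.

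Platr10 and Platr14, whose promoters are printed above, were present in all 4 libraries. Platr10 had 3.45 and 2.99 FPKM in control and 4.59 and 3.64 FPKM in Yy1 knockdown libraries, from 164 to 273 fragments. The groups did not overlap, but the lower knockdown library exceeded the higher control by less than the controls differed from each other. Platr14 had 2.91 and 4.44 FPKM in control and 6.73 and 4.17 FPKM in knockdown libraries, so that one knockdown library lay between the controls. Platr29, an lncRNA gene on chromosome 2 from 165973318 to 165981656, had 2.8 and 3.38 FPKM in control and 2.33 and 5.72 FPKM in knockdown libraries. Its knockdown replicates stood below and above both controls.

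Platr27 and Platr15 were set by single libraries. Platr27, on chromosome 2 from 157595579 to 157597320, had 7.3 and 1.37 FPKM in control (158 and 27 fragments) and 8.4 and 8.46 FPKM in Yy1 knockdown libraries (180 and 156 fragments). Control knockdown replicate 2 alone was low, and the difference on log2(FPKM + 1), 1.09 with all libraries, was 0.18 without it and 1.99 without control knockdown replicate 1. Platr15 had 0.945 and 1.41 FPKM in control and 4.2 and 0.311 FPKM in knockdown libraries. Yy1 knockdown replicate 1 was the highest and replicate 2 the lowest of its 4 values, and without replicate 1 its mean fell under 1 FPKM and its difference on log2(FPKM + 1) turned from 0.27 to -0.72.

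Platr16 stood apart in the contrast for which it was noticed. It had 0.524 and 0.0958 FPKM in the control libraries, from 12 and 2 fragments, against 10.6 and 7.34 FPKM after Yy1 knockdown, from 240 and 143 fragments. Both knockdown libraries were far above both controls, and the gap between the groups was larger than the gap within either. The means were 0.31 ± 0.303 and 8.97 ± 2.3 FPKM (SD, n = 2 each), 28.9-fold apart. Summed over each group, fragments per total were 28.4 times as many after Yy1 knockdown, with an exact 95% counting interval of 16.7 to 52.5. Intervals of this kind cover counting error only, since PCR copies are not independent molecules, and say nothing of the spread between libraries. By group mean Platr16 was 20th of the 30 in control and first after Yy1 knockdown, where it held 16% and 12.9% of the summed FPKM of all Platr rows, against 1.07% and 0.188% in control. Without Platr16 the rows summed to 48.5 and 50.8 FPKM in control and to 55.6 and 49.5 FPKM in knockdown libraries, which overlap. In whole embryos, more RNA per cell and more cells with the RNA cannot be told apart.

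Platr2, Platr8 and Platr12 were over 4-fold lower by group mean, and Platr1 was over 4-fold higher, each with at least 10 fragments in a library. Platr2 had 2.56 and 2.38 FPKM in control (46 and 39 fragments) and 0.732 and 0 FPKM in Yy1 knockdown libraries (13 and 0 fragments). A count of 0 allows a level of up to 0.197 FPKM in that library, taking 3 fragments as the limit. Both controls were well above both knockdown libraries, by 6.76-fold between the means (2.47 ± 0.128 and 0.366 ± 0.518 FPKM, SD, n = 2 each). Platr8 had 1.12 and 0.991 FPKM in control (52 and 42 fragments) and 0.261 and 0.202 FPKM in knockdown libraries (12 and 8 fragments). The counting intervals of Platr8 replicates overlapped in both groups, and the groups were 4.55-fold apart, with a counting interval of 2.77 to 7.74 for the summed fragments.

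Platr12 and Platr1 rest on few fragments. Platr12 had 0 and 1.33 FPKM in control and 0.0966 and 0 FPKM in knockdown libraries, so that its 13.7-fold difference came from 38 fragments of control knockdown replicate 2, against 3 fragments in all after knockdown (counting interval 3.87 to 61.7). Platr1 had 0.0263 and 0.0192 FPKM in control, from 3 and 2 fragments, and 0.345 and 0.134 FPKM in Yy1 knockdown libraries, from 39 and 13 fragments. Both knockdown libraries of Platr1 were higher, with a ratio of summed fragments of 10.8 and a counting interval of 4.34 to 34.7. Platr3, on chromosome 2 from 135646523 to 135652067, was listed at 0 in both controls and at 0.57 and 0.745 FPKM in knockdown libraries, from 8 and 9 fragments. The exact 95% counting interval of the ratio of summed fragments began at 4.29.

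**Figure D3:**
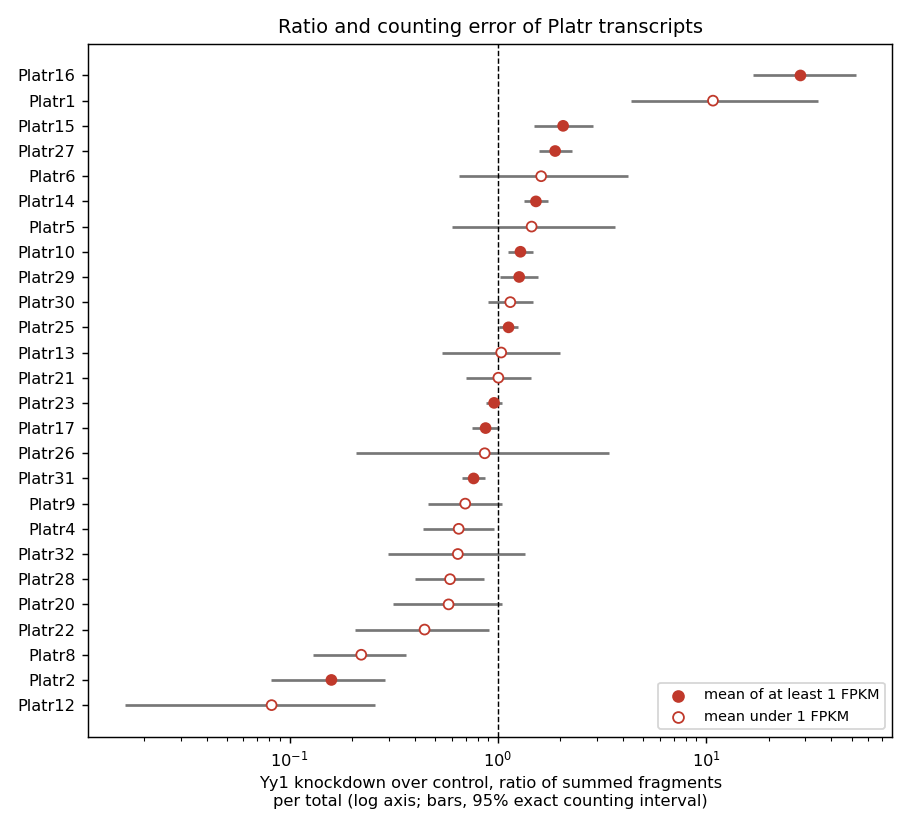
Ratio of summed fragments per total, Yy1 knockdown over control (x axis, log scale), for the 26 Platr transcripts with fragments in both groups (y axis); bars are exact 95% counting intervals, filled points have a mean of at least 1 FPKM and the dashed line marks a ratio of 1. Platr16 is at 28.4 (16.7 to 52.5) and Platr8 at 0.221 (0.129 to 0.361); the bars leave out the spread between libraries.

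The remaining rows below 1 FPKM were scattered. Platr4, Platr5, Platr6, Platr9, Platr13, Platr19, Platr20, Platr21, Platr22, Platr26, Platr28, Platr30 and Platr32 had means between 0.038 and 0.968 FPKM. Of these, Platr20 alone had groups that did not overlap, with 0.511 and 0.443 FPKM in control and 0.19 and 0.38 FPKM in knockdown libraries, from 7 to 19 fragments. Platr32 showed how far replicates can lie apart at this depth, with 0.0737 and 1.62 FPKM in control from 1 and 20 fragments. Platr22, the chromatin-associated RNA named above, had 0.395 and 0.118 FPKM in control and 0 and 0.253 FPKM in knockdown libraries. Platr4 had 0.569 and 0.274 FPKM in control and 0.172 and 0.401 FPKM in knockdown libraries, and its groups overlapped.

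Both knockdown libraries were above both controls in 5 of the 28 rows above 0 (17.9%; Platr1, Platr3, Platr10, Platr16 and Platr27), against 18.4% of 29727 rows above 0 and 14.5% of other lncRNA rows above 0. Both were below in 4 (14.3%; Platr2, Platr8, Platr20 and Platr31), against 13.1% and 9.13%. Among the 11 present rows these counts were 3 and 2, where 21.8% and 18.9% of all rows with a mean of at least 1 FPKM did the same. Of the 28, 12 were higher and 16 lower by group mean. An over 4-fold rise with at least 10 fragments was seen in 2 of the 28 rows, Platr1 and Platr16. A fall of that size was seen in 3 of the 28, Platr2, Platr8 and Platr12. Of all rows above 0, 5.43% rose and 3.48% fell by as much. Among the 11 present rows these were Platr16 and Platr2 only. Of all rows with a mean of at least 1 FPKM, 0.899% rose and 0.833% fell by as much. The median difference on log2(FPKM + 1) was -0.06 over the 28 rows and 0.21 over the 11 present rows, against 0.02 over all 12120 rows tested. Because presence uses both groups, rows such as Platr16 and Platr2 that are high in 1 group enter the present rows through that group. Nothing is therefore read from the counts or the median of the present rows.

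Over the whole table limma called 0 of 12120 rows at an adjusted p of 0.05 (0%), and 1079 had an unadjusted p under 0.05 (8.9%). With limma-voom on the recovered fragments 13 of 12118 rows were called (0.107%), and 0 of these were Platr rows. Since the members were chosen with this contrast in view, nothing is read from these counts.

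**Figure D4:**
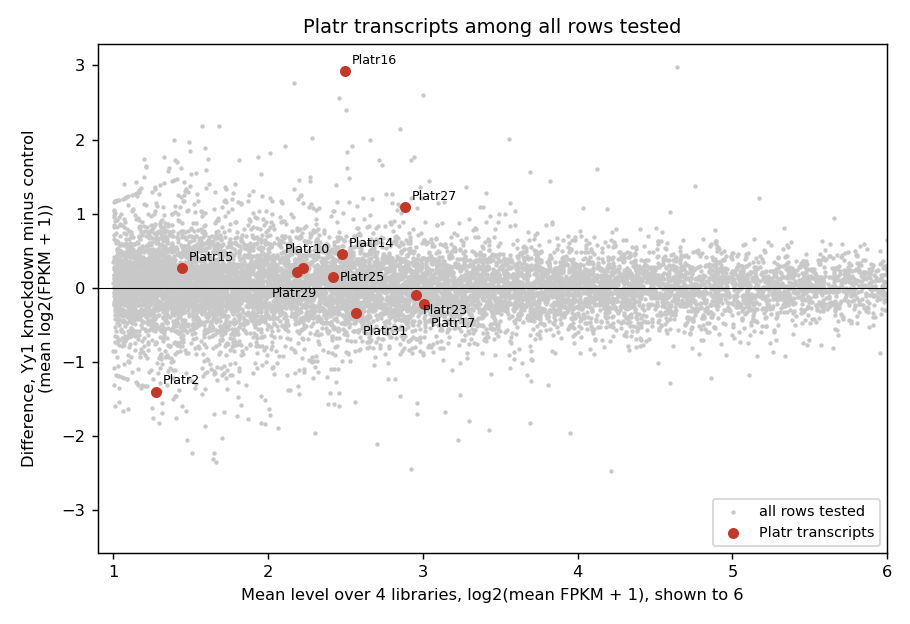
Difference between Yy1 knockdown and control (y axis, mean log2(FPKM + 1)) against the mean level (x axis, log2(mean FPKM + 1), shown to 6) for all 12120 rows with a mean of at least 1 FPKM in grey and the 11 Platr transcripts among them in red. Platr16 lies at 2.93 and Platr2 at -1.40, and the other 9 lie between -0.34 and 1.09.

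Over the 11 present rows the median absolute difference between replicates, on log2(FPKM + 1), was 0.26 in control and 0.48 in Yy1 knockdown libraries. Over the 208 other lncRNAs it was 0.38 and 0.36, and over all 12120 rows 0.23 and 0.24. The counting intervals of replicates did not overlap for 3 of 11 rows in control and 8 of 11 after Yy1 knockdown. The difference between the groups exceeded both replicate differences in 3 rows, Platr16, Platr2 and Platr10. For Platr10 the margin was narrow, 0.273 against 0.155 in control and 0.27 after knockdown. The counts of rows with intervals apart or with such a difference were not taken over all rows, so nothing is read from them.

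RefSeq coordinates were found for 19 of the 30 Platr genes, 6 of them present. The genes around these were compared in the fit over all rows. The present members Platr2, Platr15, Platr16, Platr23 and Platr31 had no RefSeq entry, so genes around them were not compared. None of the 8 measured neighbours of present members passed (limma adjusted p 0.571 to 0.982, 0 with limma-voom), where limma called 0% and limma-voom 0.107% of all rows. Of the 8, 0 had an unadjusted p under 0.05, against 8.9% of all rows. Kifc1, a kinesin of the spindle, lies 2573 bases from the Platr17 gene and had 16.5 and 22.4 FPKM in control and 10.6 and 17.6 FPKM in Yy1 knockdown libraries. Daxx, a histone H3.3 chaperone, lies 2724 bases from it on the other side and had 9.18 and 10.8 FPKM in control and 16.7 and 12.4 FPKM in knockdown libraries. Both knockdown libraries of Daxx were above both controls (limma adjusted p = 0.571), while Platr17 overlapped between groups.

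Around Platr14 lie Hipk3, a protein kinase gene, and Cstf3, a subunit of the cleavage stimulation factor of mRNA 3' ends. Hipk3 had 50.8 and 54.3 FPKM in control and 49.8 and 43.5 FPKM in Yy1 knockdown libraries (limma adjusted p = 0.747). Cstf3 had 6.22 and 7.51 FPKM in control and 5.8 and 3.37 FPKM in Yy1 knockdown libraries (limma adjusted p = 0.629). For Hipk3 and Cstf3 both knockdown libraries were below both controls. Beside Platr27, Blcap had 2.52 to 4.61 FPKM and the splicing-associated gene Ctnnbl1 22.2 to 27.2 FPKM. Zmynd8, a chromatin reader beside Platr29, was level at 14.7 to 17.6 FPKM. Gm5141, beside Platr25, had 1.01 to 2.09 FPKM. The neighbours of Platr10 were hardly detected, with Serpini1, 4918 bases away, at 0.0422 to 0.306 FPKM and Golim4 at 0 to 0.0633 FPKM, although Platr10 itself was at 2.99 to 4.59 FPKM.

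Pluripotency factors, the proteins of the network for which the Platr transcripts are named, were compared as a list of 39, of which 31 had a mean of at least 1 FPKM. By the difference on log2(FPKM + 1) 15 were higher and 16 lower, with a median of -0.01, against 0.02 over all tested rows. Both knockdown libraries were above both controls for 6 of the 31 and below both for 11. Of all rows with a mean of at least 1 FPKM, 21.8% and 18.9% did the same. The list was not tested as a set. None of the 31 passed with limma over all rows, an unadjusted p under 0.05 was seen for 6, of which 2 were higher and 4 lower, and limma-voom called 1, Zfp42. Over all rows 8.9% had such an unadjusted p and limma-voom called 0.107%. Zfp42, the gene of the stem cell marker REX1, had 30.7 and 30.2 FPKM in control and 5.43 and 3.99 FPKM in Yy1 knockdown libraries (limma adjusted p = 0.0928). Tfcp2l1, a factor of naive pluripotency, had 18.1 and 24.4 FPKM in control and 15.1 and 13.4 FPKM in knockdown libraries (limma adjusted p = 0.548). Gdf3, a TGF-beta family ligand, had 1.55 and 1.47 FPKM in control and 0.545 and 0.479 FPKM in knockdown libraries, and Klf4, a Kruppel-like factor, 26.4 and 31.4 against 22.1 and 16.5 FPKM.

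On the other side Tdh, the threonine dehydrogenase of mouse stem cells, had 10.6 and 12.03 FPKM in control and 19.1 and 17.5 FPKM in Yy1 knockdown libraries, and Klf17 61.2 and 38.2 against 83.3 and 69.2 FPKM. Their limma adjusted p was 0.5 for Tdh and 0.556 for Klf17. Nanog, at 6.56 to 9.74 FPKM, overlapped between groups. Sox2, hardly detected, had 0.127 and 0.186 FPKM in control and 0.0428 and 0 FPKM in knockdown libraries. Pou5f1 had 195 and 214 FPKM in control and 178 and 190 FPKM in knockdown libraries (limma adjusted p = 0.75). For Sox2 and Pou5f1 both knockdown libraries were below both controls. The Pou5f1 values of 190 and 195 FPKM lay closer together than the replicates of either group. At 178 to 214 FPKM, Pou5f1 was far above every Platr transcript, the highest single value of which was 10.6 FPKM, for Platr16.

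Of 48 other noncoding RNAs known from stem cells or embryos 40 had a row and 15 were present, with a median log2 difference of 0.01. None passed with limma or with limma-voom (0% and 0.107% of all rows), and 0 had an unadjusted p under 0.05 (8.9% of all rows). Lncenc1, which RefSeq gives as the current symbol of Platr18, is not a member by symbol and had 1.72 and 0.704 FPKM in control and 4.28 and 2.1 FPKM in Yy1 knockdown libraries (limma adjusted p = 0.574). Both knockdown libraries of Lncenc1 were above both controls, but 1.72 and 2.1 FPKM lay closer together than the replicates of either group. Epb41l4aos had 19 and 20.8 FPKM in control and 23.9 and 28.7 FPKM in knockdown libraries (limma adjusted p = 0.581). Snhg1 had 22.4 to 36.8 FPKM and Terc, the telomerase RNA, 25.4 to 48.96 FPKM, both with overlapping groups. Snhg14, a host transcript of small nucleolar RNAs, had 1.91 and 1.8 against 1.47 and 1.39 FPKM, and Malat1, a nuclear speckle RNA, 45.2 and 83.5 against 40.5 and 59.7 FPKM, which overlap.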

How the data were processed

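RNA of 8-cell embryos was extracted and made into libraries using the SMART-Seq stranded kit, per the labels' protocols. Per the labels, the authors deposited 1 table of FPKM values for all genes. Tools in the submitters' processing notes include HISAT2 2.2.1, Trim Galore 0.6.7, SAMtools 1.4.1, featureCounts and R 4.0.3, and the build is mm10; which tool made the FPKM, the annotation, strand setting and multimapping are not stated there, so overlapping, antisense and copied genes are uncertain. Members and lists were chosen with earlier results of these data known.

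Fragments were recovered from the FPKM steps. Of 12120 rows with a mean of at least 1 FPKM, 12118 gave whole numbers throughout, to within 0.02 of a fragment. On simulated data the share recovered exactly was 96.6% of such rows and 96.5% of lower rows; the others can be understated by a common factor.

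limma 3.58.1 (R 4.3.3) was fitted on log2(FPKM + 1), which understates changes of low genes, with group alone, a mean-variance trend and Benjamini-Hochberg adjustment over all rows. In simulated tables of 12120 genes for this comparison it called 12.4% of genes given a log2 change of 1 and 96.1% at a change of 3. There were 6.5 false calls per table. The changed genes had means above about 5 FPKM, so lower members are not covered. Planting many changed genes eases the adjusted threshold, and spreads were drawn from the fitted model. In the data Yy1, at a log2 difference of -3.26, was not called (limma adjusted p = 0.0556). The simulated shares therefore hold for that setting only. The genes named are Yy1, all Platr rows, neighbours of present members and up to 6 genes per list by smallest p; Nanog, Sox2 and Pou5f1, and the neighbours of absent members, were chosen after their values were seen. Promoters and coordinates are from RefSeq (GRCm38.p6).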

Additional observations from a re-analysis of the deposited data

How the results depend on the processing

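With other settings the number of genes called by limma, 0 of 12120, was 4 with a filter of 5 FPKM and 13 with limma-voom on fragments, and stayed 0 under median-ratio scaling, a pseudocount of 0.1, a filter at 0.1 FPKM or none, and without each library in turn. With the replicate number as a replicate block it was also 0; same-numbered libraries deviated together with a correlation of 0.0994, so the numbers were not taken to pair the samples. The planned quasi-likelihood test on recovered fragments was not run, as the deposited values are not counts. Present Platr rows numbered 11, against 26 with a filter of 0.1 FPKM, 28 with no filter, 3 with a filter of 5 FPKM, and 10 to 13 without a library. The median Platr difference of 0.21 was -0.064 with no filter or a filter of 0.1 FPKM and -0.0904 with a filter of 5 FPKM, where other rows enter, and ran from 0.0807 (without control knockdown replicate 1) to 0.408 (without Yy1 knockdown replicate 2). With the replicate block it was 0.21. Promoters with the motif were 13.3%, 0% with CCATNTTG and 33.3% with GCCAT. With a pseudocount of 0.1 Platr16 was 4.67 (2.93 with 1) and Platr2 -3.16 (-1.40 with 1). Leaving out a library turned the sign of Platr17 (0.03 without control knockdown replicate 2, 0.3 without Yy1 knockdown replicate 1), Platr23 (0.15 without Yy1 knockdown replicate 2) and Platr29 (-0.29 without Yy1 knockdown replicate 2). Platr15 fell under the filter without Yy1 knockdown replicate 1; with the 11 members kept, a setting added after seeing the data, it also turned, to -0.72. Neighbour genes and pluripotency factors called stayed at 0 in every limma setting run for them. Depth limits the low members: 13 of 30 rows had at least 10 fragments in every library.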

Other observations

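Some genes beside Platr members that were not present are well expressed. They fall outside the naming rule and were chosen after their values were seen. Nr5a2, a nuclear receptor of early embryos, lies 116834 bases beyond Platr22 and had 114 and 94.3 FPKM in control and 90.2 and 90.8 FPKM in Yy1 knockdown libraries (limma adjusted p = 0.723). Zfp281, on the other side of Platr22, had 5.77 and 6.42 FPKM in control and 7 and 7.28 FPKM in knockdown libraries (limma adjusted p = 0.761). Lin7c, 1459 bases from Platr8, had 30.7 and 29.1 FPKM in control and 38.1 and 29.2 FPKM in knockdown libraries (limma adjusted p = 0.821), so its groups overlapped while those of Platr8 did not. Jade1, a subunit of histone acetyltransferase complexes 62535 bases from Platr4, had 4.2 and 6.81 FPKM in control and 1.94 and 1.87 FPKM in knockdown libraries (limma adjusted p = 0.466). Among 18 tested neighbours of all Platr genes with coordinates it was the 1 with an unadjusted p under 0.05, against 8.9% of all rows, and 0 passed with limma or limma-voom.

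Eomes, the trophectoderm and mesendoderm factor, lies 31009 bases beyond Platr11. It had 0.426 and 0.107 FPKM in control and 0.735 and 0.624 FPKM in knockdown libraries. Both knockdown libraries of Eomes were above both controls, at low levels, and Platr11 itself was listed at 0. Kis2, for which RefSeq gives Platr24 as a synonym, was listed at 0 in all 4 libraries. Trap1a, which overlaps the X-linked Platr21 gene, had 4.24 and 8.89 FPKM in control and 7.35 and 8.78 FPKM in knockdown libraries, against 0.129 to 0.37 FPKM for Platr21.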
